A study of Mus musculus with 9 samples.

Results

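The proteins of the cytosolic ribosome, together with their close paralogs, were examined by ribosome profiling in 3 immortalized striatal cell lines from mouse. Ribosome profiling sequences the mRNA stretch that a ribosome covers, so the count of a gene is the number of its ribosome-protected fragments (RPFs, or footprints). Members were chosen by gene symbol, with earlier results of these data known. They were the rows named Rpl, Rps or Rplp with a number, plus Rpsa and 5 named paralogs. Of the 36410 rows, 84 met this rule. Of these, 76 were core members, 30 of the small (40S) subunit and 46 of the large (60S) subunit, and 8 were paralogs that resemble a core member (Rpl3l, Rpl7l1, Rpl10l, Rpl22l1, Rpl32l, Rpl39l, Rps4l and Rps27l). In the control line (STHdhQ7/Q7) both Htt alleles encode 7 glutamines, in the HD-het line (STHdhQ7/Q111) 1 of the alleles encodes 111, and in the HD-homo line (STHdhQ111/Q111) both encode 111. All 3 lines are labelled as C57/BL6, all carry a knock-in Htt exon 1 with the repeat lengths just given, and all received cycloheximide for 10 min before lysis. Each line had 3 libraries, made from fragments of 26 to 32 nt taken from the 80S monosome fraction. A genotype was represented by a single line, so line and genotype cannot be told apart, and nothing in the labels says that the libraries of a line came from separate cultures, so p-values measure the spread between these libraries.

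The 40S subunit reads the mRNA and the 60S subunit joins the amino acids, and in a complete ribosome nearly every ribosomal protein is present once. Most mRNAs for ribosomal proteins in mammals begin with a C and a short run of pyrimidines, the 5′ terminal oligopyrimidine (TOP) motif, through which Larp1 and the kinase mTORC1 set their translation together. Some ribosomal proteins have a second gene whose product can take the same place in the ribosome, and several of these are known for narrow expression, such as Rpl3l in heart and skeletal muscle and Rpl10l in the testis.

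The start of the transcript is shown for 10 members because a pyrimidine run at that place is the feature for which these mRNAs are known, and members with and without it are set side by side. The windows hold 10 bases before and 20 bases from the annotated RefSeq start (assembly GRCm38.p6), on the strand of the gene, and capitals mark a run of a C and at least 4 more pyrimidines that begins within 5 bases of the start. The order is 5 core members with a run, 2 paralogs with a run, then 3 members without one.
Rps6 (chr4:86857348-86857377, minus strand): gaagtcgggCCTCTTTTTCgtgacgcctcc
Rpl35 (chr2:39005112-39005141, minus strand): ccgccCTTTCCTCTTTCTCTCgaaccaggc
Rps26 (chr10:128626487-128626516, minus strand): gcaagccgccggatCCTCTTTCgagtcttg
Rps23 (chr13:90923112-90923141, plus strand): cggctgggcggggCTTCCCgcaatgccttg
Rps27 (chr3:90213629-90213658, minus strand): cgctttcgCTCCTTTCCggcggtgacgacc
Rps27l (chr9:66946076-66946105, plus strand): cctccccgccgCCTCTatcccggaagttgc
Rpl22l1 (chr3:28805498-28805527, plus strand): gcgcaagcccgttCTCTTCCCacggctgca
Rps15 (chr10:80292421-80292450, plus strand): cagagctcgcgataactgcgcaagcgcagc
Rpl41 (chr10:128549149-128549178, minus strand): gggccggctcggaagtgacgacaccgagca
Rpl10 (chrX:74270806-74270835, plus strand): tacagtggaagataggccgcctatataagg
A run was present in 29 of the 66 windows of core members (43.9%), in 3 of 9 windows of paralogs and in 18.3% of the 32851 windows of all genes. Only the strand of the gene was searched. Of the 84 members, 63 had a window, and a window without the run says only that these letters are not there.

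The first coding bases are shown for 2 pairs because they decide how well the footprints of a paralog can be kept apart from those of its partner. Capitals mark the bases that differ from the first sequence of the pair over coding bases 1 to 60 (RefSeq, GRCm38.p6).
Rps27: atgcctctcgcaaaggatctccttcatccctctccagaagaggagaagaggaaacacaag
Rps27rt: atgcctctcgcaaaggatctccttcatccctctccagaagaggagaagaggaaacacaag
Rps27l: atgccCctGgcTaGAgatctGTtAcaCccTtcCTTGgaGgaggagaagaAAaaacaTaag
Rpl10: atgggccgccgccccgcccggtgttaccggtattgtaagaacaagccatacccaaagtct
Rpl10l: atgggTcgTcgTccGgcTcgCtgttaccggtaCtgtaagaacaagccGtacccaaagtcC
Rps27l differed from Rps27 at 18 of these bases, and its coding sequence of 255 nt was 76.1% identical to that of Rps27, with no 28-base stretch in common. Rps27rt, a row outside the rule, had the same coding sequence as Rps27, and the 2 rows held equal counts in all 9 libraries. Rpl10l differed from Rpl10 at 9 of the bases shown and was 84.8% identical over 645 nt; no 28-base stretch was identical, but 19.6% of those of Rpl10 came within 2 mismatches of Rpl10l. Rpl32l held between 83.6% and 87.7% of the count of Rpl32 in every library. It shared 39.2% of its stretches with Rpl32, and footprints from these cannot be assigned to 1 gene, while 42.4% of its stretches lay at 1 genomic place. Of the stretches of Rpl32, 92.4% came within 2 mismatches of Rpl32l. The Rpl32l row is counted below as a paralog with this limit. Between Rpl7l1 and Rpl7, and between Rpl3l and Rpl3, no stretch came within 2 mismatches in the 1 transcript used per gene. That of Rpl3l had 723 nt of coding sequence, against 1212 nt for Rpl3, and other transcripts were not compared.

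Library totals lay between 22504543 and 41888701 counts, and the members took 1004151 to 3177344 of them. The dopamine receptor genes Drd1 and Drd2, which define striatal projection neurons, had no count in any library. A count of 0 allows up to 3 counts, or 0.0716 to 0.133 CPM (the library-size-normalised read count), counting error only. The 12 striatal markers with a row summed to 44.8 to 75.3 CPM, most of it from Foxp1. Not all the rest were absent, as Ppp1r1b had the highest mean level after Foxp1 in each line. Next came Penk in control and HD-homo and Pde10a in HD-het. Of 5 mesenchymal markers (Col1a1, Col1a2, Col3a1, Pdgfrb, Acta2), the summed level (CPM) was 6404 to 9163 for control, 25459 to 27750 for HD-het, and 5568 to 7077 for HD-homo libraries. The sum of 6 neural precursor markers (CPM) was 9587 to 9857 for control, 8992 to 9823 for HD-het, and 5991 to 6524 for HD-homo libraries. Most of it was Vim, with means of 9231, 8277 and 6198 CPM in control, HD-het and HD-homo. Other markers of this list followed other orders, with mean levels (CPM; control, HD-het, HD-homo) of 399.6, 1086 and 7.01 for Nes, 51.2, 33.9 and 2.26 for Sox2, and 17.3, 24.8 and 0.0759 for Pax6. Col1a2 alone of the 5 mesenchymal markers was highest in HD-homo. The summed mesenchymal level was highest in the line in which the ribosomal proteins, described next, were lowest, and their part in the result was not tested. In bulk lysates, fewer cells with high levels and a lower level in every cell cannot be told apart.

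Members were compared with each other per length, as CPM per kb of coding sequence (CPM/kb), in the control line. The median core member had 1630 CPM/kb, and the 2 highest were Rpl38 with 11837 ± 780 (SD, n = 3) and Rpl41 with 11102 ± 1143, whose ranges overlapped. Rpl38, a large-subunit protein known for its part in the translation of Hox mRNAs, has 213 nt of coding sequence, and Rpl41, the shortest of the ribosomal proteins, has 78 nt. Next came Rpl35 at 5939 ± 604 CPM/kb and Rpl19 at 5767 ± 266 CPM/kb, whose ranges overlapped. Rps29 followed at 5202 ± 113 CPM/kb, below every Rpl19 value, but its highest library (5311 CPM/kb) exceeded the lowest of Rpl35 (5243 CPM/kb). At the other end, Rpl17, Rpl29 and Rpl30 had 3.28, 1.90 and 1.84 CPM/kb, from 8 to 72 counts per library. Many members have processed copies in the genome. A 28-base stretch of coding sequence of Rpl29, Rpl17, Rpl30 and Rpl21 was found at a median of 27, 18, 10 and 37 genomic places. The 5 core members with over 14 places had a median of 105 CPM/kb, from 1.90 to 578 CPM/kb. The 23 with at most 3 places had a median of 2203 CPM/kb, from 153 to 4711 CPM/kb. The 15 with over 7 and at most 14 places, Rpl30 among them, ran from 1.84 to 11102 CPM/kb, with a median of 1460. The rule by which fragments with several places were counted is not given in the sources used here. Nor is the annotation, so the part of a gene that was counted may differ from its coding sequence. An order of levels among members rests on both, while each member was compared across the lines with itself. Rpl23 was also low, at 153 ± 74.8 CPM/kb, with a median of 2 places.

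**Figure D1:**
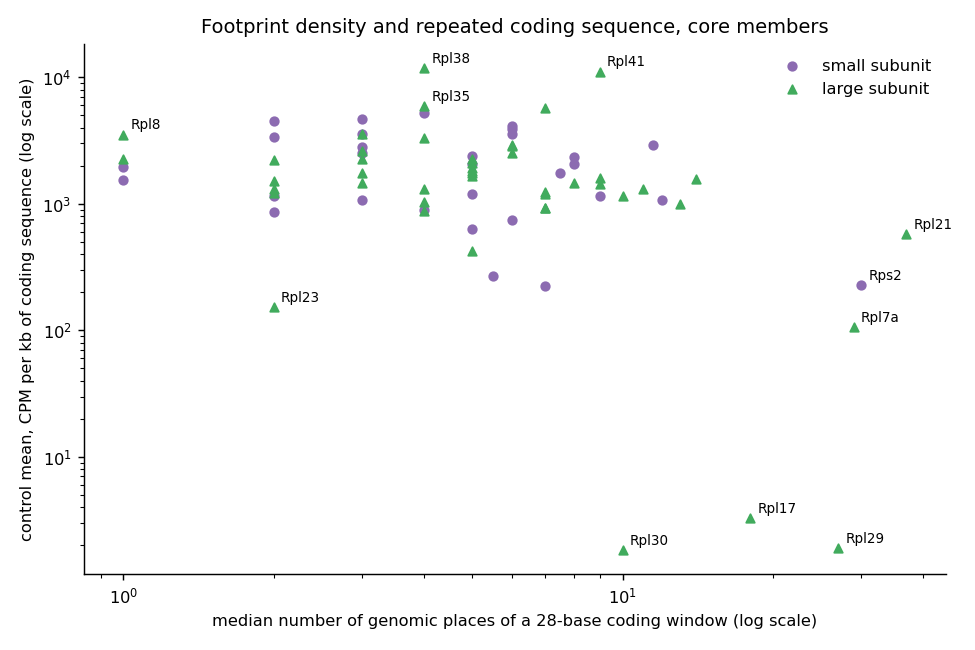
Mean footprint density of each of the 76 core members in control (CPM per kb of coding sequence, log axis, mean of 3 libraries) against the median number of genomic places that hold a 28-base stretch of its coding sequence (log axis). Points are genes of the small (circles) and large (triangles) subunit; Rpl38 and Rpl41 are at the top, and Rpl17, Rpl29 and Rpl30 lie under 4 CPM/kb.

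In HD-het cells, nearly the whole family was lower than in control. Of the 82 members that passed the filter on low counts, 80 were lower and 0 were higher at an adjusted p under 0.05 (edgeR, Benjamini-Hochberg over 12678 rows), where 29.1% of all rows were lower and 31.0% higher. The median log2 fold change of the core members was -0.69, with quartiles of -0.86 and -0.56, and that of all rows was 0.02. All 30 small-subunit members and 45 of the 46 large-subunit members were lower, as were 5 of the 6 paralogs tested. A total of 13 members fell by at least 1 on the log2 scale. At an adjusted p under 0.05, 80 members also differed among the 3 lines as a whole, where 78.4% of all rows did.

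The size of the fall differed among members. Rps15, which lies in the head of the small subunit close to the decoding site, had 1128, 1099 and 1114 CPM in the control libraries and 419, 417 and 443 CPM in HD-het. The replicates lay close together and the lines far apart, with a fitted log2 difference of -1.39 ± 0.08 (± is the SE here and below; adjusted p = 2.4e-07). Rpl8, a large-subunit protein next to the peptidyl transferase centre, had 2817, 2886 and 2490 CPM in control and 1203, 1094 and 1185 CPM in HD-het, with a log2 fold change of -1.23 ± 0.12 (adjusted p = 1.0e-05). Rpl41 had 949, 772 and 877 CPM in control and 350, 237 and 401 CPM in HD-het, a log2 fold change of -1.40 ± 0.17 (adjusted p = 4.1e-05). The size of this fall depended on the setting, as the value of Rpl41 ran from -1.58 to -0.73, while its call held in all 20 settings. None of these 3 members had an HD-het library within the control range. Rpl23, on the face of the large subunit that meets the small one, had the lowest fitted value, -1.49 ± 0.46 (adjusted p = 0.014), but its libraries were spread widely. It had 70.8, 30.5 and 92.9 CPM in control and 29.4, 15.2 and 24.4 CPM in HD-het, and it missed the threshold without control replicate 3 (adjusted p = 0.058) or without HD-het replicate 2 (adjusted p = 0.064).

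The smallest falls at 10 CPM or more were those of 3 large-subunit members. Rpl37a had 573, 523 and 524 CPM in control and 437, 449 and 449 CPM in HD-het, a log2 fold change of -0.28 ± 0.09 (adjusted p = 0.023). Offsets for GC content and coding length took the value of Rpl37a to 0.0044, and its call was also lost without control replicate 1 (adjusted p = 0.073) and without HD-het replicate 1 (adjusted p = 0.054). Rpl24 had 728, 643 and 709 CPM in control and 541, 538 and 549 CPM in HD-het, a log2 fold change of -0.35 ± 0.08 (adjusted p = 0.0026). Rpl10, which joins the large subunit late in its maturation, had 1038, 1082 and 981 CPM in control and 748, 820 and 800 CPM in HD-het, a log2 fold change of -0.39 ± 0.09 (adjusted p = 0.0032). The lines did not overlap for any of the 3. The 2 members that did not pass were Rpl17, at under 3 CPM in every library, with -0.18 ± 0.22 (adjusted p = 0.50), and the muscle paralog Rpl3l, with -0.64 ± 0.29 (adjusted p = 0.076). Rpl3l passed without control replicate 2 (adjusted p = 0.019), without HD-homo replicate 1 (adjusted p = 0.021), with the 6 libraries compared alone (adjusted p = 0.027), with no filter (adjusted p = 0.041) and with total counts (adjusted p = 0.047). Rps4l, annotated as a transcribed pseudogene, had no count in any library, and Rpl39l had 1 to 7 counts per library; neither was tested.

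Members known for a role of their own, on the ribosome or outside it, were also read one by one in HD-het against control. Rpl5 and Rpl11, which carry the 5S ribosomal RNA and can bind Mdm2, had log2 fold changes of -0.61 ± 0.07 and -0.58 ± 0.09. Rps6, the substrate of the S6 kinases, had 1621, 1465 and 1596 CPM in control and 1010, 906 and 1000 CPM in HD-het, with a log2 fold change of -0.68 ± 0.08 (adjusted p = 2.4e-05). Rplp0, Rplp1 and Rplp2, the stalk that recruits elongation factors, had -0.56 ± 0.12, -0.65 ± 0.11 and -0.70 ± 0.10, all past the threshold. Among small-subunit members, Rps26, which contacts the mRNA at the exit channel, had the largest fall of this group (-1.15 ± 0.10), and Rps3, at the mRNA entry, the smallest (-0.52 ± 0.09). Rps19, mutated in Diamond-Blackfan anaemia, had -0.96 ± 0.10, Rps25 -0.74 ± 0.08, and Rps27a, made as a fusion with ubiquitin, -0.71 ± 0.08. Rpsa, also known as a laminin receptor, had -0.64 ± 0.10, Rpl10a -0.74 ± 0.08, Rpl38 -0.84 ± 0.09, and Rpl13a, which also has a part in translational silencing in inflammation, -0.40 ± 0.10. Every member named in this paragraph was past the threshold.

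**Figure D2:**
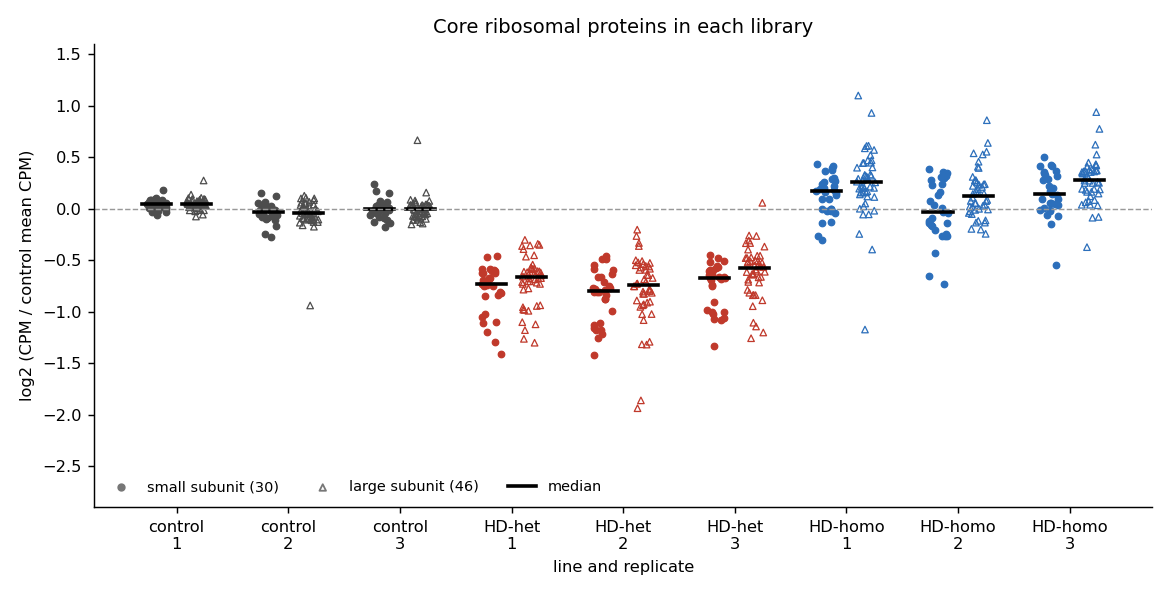
Level of each core member in each of the 9 libraries as log2 of its CPM over its control mean, with filled circles for 30 small-subunit and open triangles for 46 large-subunit members and a bar at the median. The medians of the 3 HD-het libraries lie between -0.80 and -0.58 for both subunits, while those of HD-homo lie between -0.04 and 0.17 for the small and between 0.13 and 0.28 for the large subunit.

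In HD-homo cells the members lay close to control or above it. A higher level was found for 29 of the 82 members (35.4%), where 23.3% of all rows were higher, and a lower level for 2 (2.44%), where 22.3% of all rows were lower; 51 members did not pass. The median log2 fold change of core members was 0.18, with quartiles of 0.04 and 0.32. Of the large subunit, 22 of 46 members were higher (47.8%) and none lower. Of the small subunit, 5 of 30 were higher (16.7%), a smaller share than the 23.3% of all rows, and 1 was lower (Rps29). Among the 5 were Rps4x, Rps23, Rps27 and Rps27a. The count of 29 depended on the libraries, as it was 19 without control replicate 1, 16 without control replicate 2, 19 without control replicate 3 and 18 without HD-homo replicate 3, and it was 16 with the offsets for GC content and coding length. The count of 2 lower members became 1 when control replicate 1 or 3 or HD-homo replicate 1 was left out, and 5 with the offsets.

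Rpl21 had the largest rise among members at 10 CPM or more. It had 284, 258 and 296 CPM in control and 368, 506 and 477 CPM in HD-homo, a log2 fold change of 0.69 ± 0.13 (adjusted p = 0.0012). Rpl9 had 867, 863 and 805 CPM in control and 1269, 1046 and 1216 CPM in HD-homo, with 0.48 ± 0.09 (adjusted p = 9.4e-04). Neither gene had an HD-homo library inside the control range, but the HD-homo libraries were more spread than the control ones. Rpl35, near the exit of the peptide tunnel, had 2352, 1950 and 2326 CPM in control and 2456, 3197 and 3388 CPM in HD-homo, with 0.45 ± 0.15 (adjusted p = 0.027). Its call was lost without control replicate 1 (adjusted p = 0.050), control replicate 2 (adjusted p = 0.10), HD-homo replicate 2 (adjusted p = 0.064) or HD-homo replicate 3 (adjusted p = 0.10). Rpl5 and Rpl11 were both higher, with 0.32 ± 0.07 (adjusted p = 0.0032) and 0.39 ± 0.09 (adjusted p = 0.0041). With the offsets, Rpl5 no longer passed (adjusted p = 0.13), and neither did Rps27a of the small subunit (0.12, adjusted p = 0.18). The stalk proteins Rplp0, Rplp1 and Rplp2 had values of 0.04, 0.02 and 0.02 and did not pass.

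Rps29 was the small-subunit member that went against the family in HD-homo. It had 870, 908 and 891 CPM in control, 363, 406 and 444 CPM in HD-het and 743, 534 and 609 CPM in HD-homo, so it was lower than control in both lines, by -1.14 ± 0.12 (adjusted p = 1.3e-05) in HD-het and -0.50 ± 0.12 (adjusted p = 0.0049) in HD-homo. Rpl7l1, the paralog of Rpl7, had 200, 187 and 206 CPM in control, 95.2, 86.8 and 111 CPM in HD-het and 149, 154 and 170 CPM in HD-homo. Its log2 fold change against control was -1.02 ± 0.10 (adjusted p = 8.0e-06) in HD-het and -0.33 ± 0.10 (adjusted p = 0.019) in HD-homo. The HD-homo call was lost when any of 3 libraries was left out, namely control replicate 1 (adjusted p = 0.050), control replicate 3 (adjusted p = 0.060) and HD-homo replicate 1 (adjusted p = 0.055). Rps15a had 120, 102 and 97.2 CPM in control and 86.2, 67.2 and 101 CPM in HD-homo, with -0.33 ± 0.14 (adjusted p = 0.068), and the libraries overlapped. It passed without HD-homo replicate 3 (adjusted p = 0.015), with no filter (adjusted p = 0.046) and with the offsets (adjusted p = 0.0065).

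**Figure D3:**
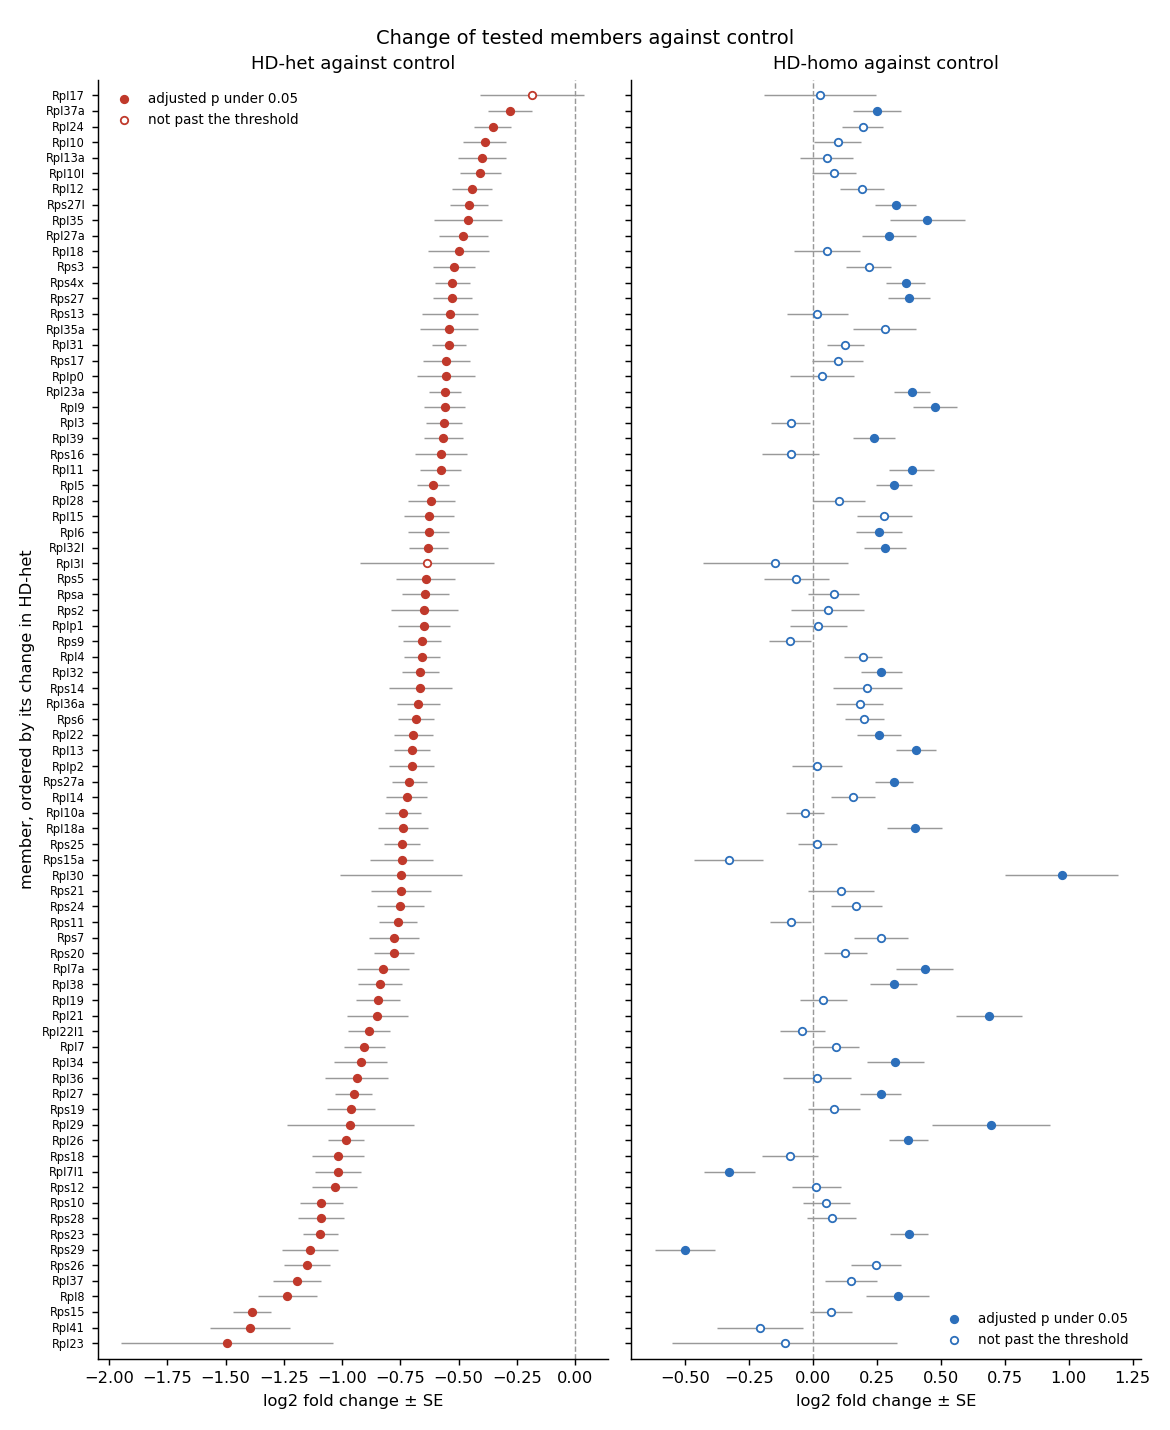
Fitted log2 fold change with its SE for the tested members other than 1 that is not shown, HD-het against control on the left and HD-homo against control on the right, in the order of the left panel. Filled points are past an adjusted p of 0.05, which holds for all members shown on the left but Rpl17 and Rpl3l; the 2 comparisons share the control libraries.

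The mutant lines were also set against each other. Against HD-het, HD-homo was higher for 80 members and lower for 0, where 34.6% of all rows were higher and 32.8% lower, and the median for core members was 0.90. Rpl17 (0.21 ± 0.23, adjusted p = 0.42) and Rpl3l (0.49 ± 0.29, adjusted p = 0.15) did not pass, though Rpl3l did without HD-homo replicate 1 (adjusted p = 0.012). Rpl8 had the largest difference at 10 CPM or more, with 1203, 1094 and 1185 CPM in HD-het and 4158, 2892 and 3264 CPM in HD-homo (1.57 ± 0.13, adjusted p = 9.9e-07). Rpl21 had 141, 145 and 179 CPM in HD-het (1.54 ± 0.13), and Rps23, a protein of the decoding centre, had 471, 455 and 498 CPM in HD-het and 1351, 1246 and 1351 CPM in HD-homo (1.47 ± 0.08, adjusted p = 3.4e-08). For all 3 genes the lowest HD-homo library was above the highest HD-het one. The smallest differences at 10 CPM or more were those of Rps15a (0.42 ± 0.14, adjusted p = 0.018), Rpl13a (0.45 ± 0.10, adjusted p = 0.0023) and Rpl3, at the peptidyl transferase centre (0.48 ± 0.08, adjusted p = 2.1e-04). The call for Rps15a was lost without HD-het replicate 1 (adjusted p = 0.065), without HD-homo replicate 3 (adjusted p = 0.082) and with the offsets for GC content and coding length (adjusted p = 0.68).

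As a share of all counts, which needs no scaling between libraries, the members held 7.78%, 7.45% and 7.76% in the control libraries, 4.53%, 4.29% and 4.41% in HD-het and 9.02%, 8.52% and 8.91% in HD-homo. The lines did not overlap. Small-subunit members held 2.89% ± 0.08 (SD, n = 3), 1.59% ± 0.04 and 3.15% ± 0.11 of all counts in control, HD-het and HD-homo, and large-subunit members 4.57% ± 0.10, 2.69% ± 0.08 and 5.44% ± 0.16. The log2 ratio of small-subunit to large-subunit counts was -0.67, -0.67 and -0.64 in the control libraries, -0.76, -0.73 and -0.77 in HD-het and -0.79, -0.80 and -0.78 in HD-homo. It was thus lower in every library of both mutant lines than in any control library, while the lowest HD-het and the highest HD-homo library differed by less than the spread within either line. By medians over genes, the log2 fold change of small-subunit members minus that of large-subunit members was -0.08 for HD-het and -0.16 for HD-homo against control, and -0.02 between the mutant lines. These differences over members were described without a test. They were small beside the shift of the whole family in HD-het, and leaving out a library moved them to between -0.094 and -0.036 in HD-het, with the value closest to 0 without control replicate 3, and to between -0.19 and -0.11 in HD-homo.

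**Figure D4:**
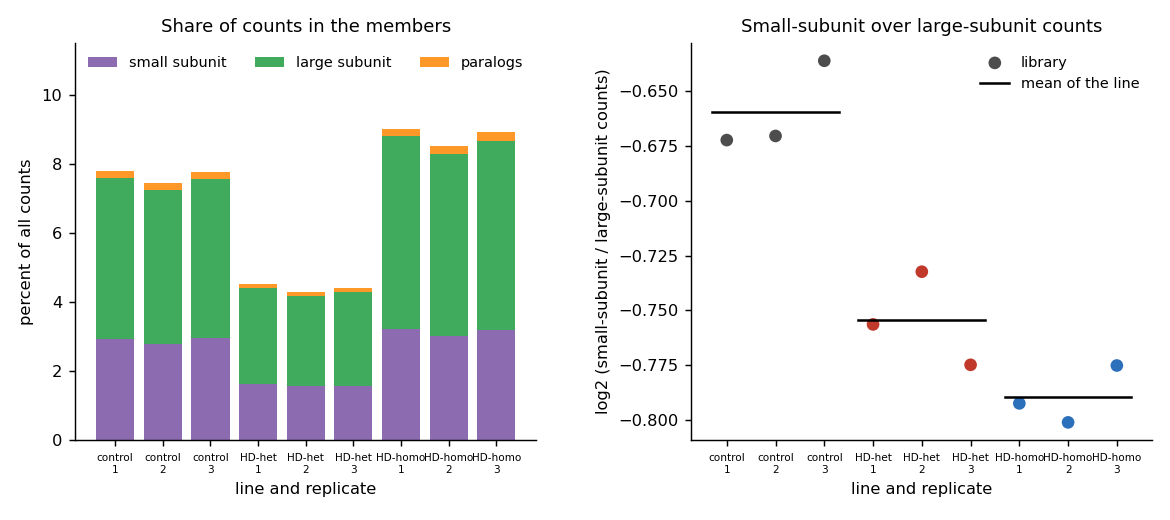
Left, percent of all counts of each of the 9 libraries in small-subunit, large-subunit and paralog members (stacked bars). Right, log2 ratio of summed small-subunit to summed large-subunit counts in each library, with a line at the mean of each cell line; the control libraries lie between -0.67 and -0.64 and all others between -0.80 and -0.73.

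To see which members departed from the shift of the family, the fit was repeated with each library scaled to the summed counts of its core members. On this scale nearly all other genes moved by construction, so that the median of all rows was 0.77 for HD-het and -0.16 for HD-homo against control and -0.91 between the mutant lines. In HD-het, 13 of 82 members were higher and 15 lower within the ribosomal protein pool, where 75.0% of all rows were higher and 5.59% lower. Rpl37a (0.47 ± 0.09), Rpl24 (0.40 ± 0.09) and Rpl10 (0.36 ± 0.10) were highest and Rpl41 (-0.66 ± 0.16), Rps15 (-0.64 ± 0.09) and Rpl8 (-0.49 ± 0.11) lowest among members past the threshold at 10 CPM or more. Rpl17, at under 3 CPM, had 0.56 ± 0.24 (adjusted p = 0.043), and Rpl23, with -0.75 ± 0.41, did not pass (adjusted p = 0.11). Of small-subunit members, 3 were higher and 9 lower, and of large-subunit members, 8 were higher and 5 lower. The 13 higher members became 6 without control replicate 1 and 8 without HD-het replicate 2.

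In HD-homo against control, 5 members were higher and 8 lower within the pool, where 14.2% of all rows were higher and 32.4% lower. At 10 CPM or more, Rpl21 (0.52 ± 0.13, adjusted p = 0.0059), Rpl9 (0.30 ± 0.09, adjusted p = 0.013) and Rpl13 (0.23 ± 0.08, adjusted p = 0.037) were highest and Rps29 (-0.68 ± 0.11, adjusted p = 2.1e-04), Rps15a (-0.51 ± 0.12, adjusted p = 0.0042) and Rpl7l1 (-0.50 ± 0.10, adjusted p = 8.4e-04) lowest. The 5 higher members became 1 without control replicate 1, 2 without control replicate 3 and 3 without HD-het replicate 1, and the 8 lower ones 4 without control replicate 1, 5 without control replicate 2 and 4 without HD-homo replicate 3. Between HD-homo and HD-het, 15 members were higher and 23 lower within the pool, where 7.61% of all rows were higher and 77.7% lower. Rpl8 (0.64 ± 0.11), Rpl21 (0.63 ± 0.14) and Rps23 (0.55 ± 0.08) led the former at 10 CPM or more, and Rps15a (-0.52 ± 0.13), Rpl13a (-0.47 ± 0.09) and Rpl3 (-0.45 ± 0.08) the latter. The 15 became 9 without HD-het replicate 1.

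Paralogs were set against their core partner as a ratio of counts within each library, since such a ratio is free of the scaling between libraries. Of the 6 pairs with enough counts, Rpl22l1 over Rpl22 and Rpl7l1 over Rpl7 had the largest differences between lines whose libraries did not overlap. No ratio passed the threshold in the permutation test given below. Rpl22l1 (chr3:28805508-28807424, 4 coding exons) reached 48.6% of the Rpl22 count in control cells, against 42.6% for HD-het and 39.4% for HD-homo, as geometric means. The log2 ratio was -1.07, -1.09 and -0.96 in the control libraries, -1.32, -1.17 and -1.21 in HD-het and -1.37, -1.33 and -1.33 in HD-homo. No 2 lines overlapped, but the lowest HD-het library (-1.317) and the highest HD-homo library (-1.325) nearly met. Rpl7l1 (chr17:46773907-46782656, 6 coding exons) reached 13.8% of the Rpl7 count in control cells, against 12.7% for HD-het and 10.4% for HD-homo. Its log2 ratio was -2.86, -2.88 and -2.83 in control, -2.96, -3.09 and -2.87 in HD-het and -3.31, -3.17 and -3.32 in HD-homo, and HD-homo overlapped neither of the other lines.

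The remaining 4 pairs are given by their values. Rps27l (chr9:66944624-66949522, 4 coding exons) reached 170% of the Rps27 count in control cells, against 179% for HD-het and 164% for HD-homo, and the log2 ratios of all lines overlapped. The coding sequences of this pair are equally long, so the Rps27l row held more counts per length than the Rps27 row in every library. Rps27 and Rps27rt cannot be told apart. Of the stretches of Rps27, 0% lay at 1 genomic place (median of 5 places), against 36.4% of those of Rps27l (median of 2.5 places). The rule for counting fragments with several places is not given, so these counts cannot show which gene of the pair was translated more. Rpl10l (chr12:66283379-66284401, 1 coding exon) had 14.9%, 14.7% and 14.7% of the count of Rpl10 in control, HD-het and HD-homo, next to the near matches in sequence given above. Rpl3l stayed at 0.898%, 0.878% and 0.847% of Rpl3, with an SD of the log2 ratio of up to 0.72. For Rpl32l over Rpl32, the log2 ratio in HD-het lay above that in control by 0.03, without overlap. In an exact 2-sided permutation test over libraries, 6 of the 18 comparisons reached the smallest p that 3 against 3 allows, 0.10, which became 0.30 after Benjamini-Hochberg adjustment over the 18.

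**Figure D5:**
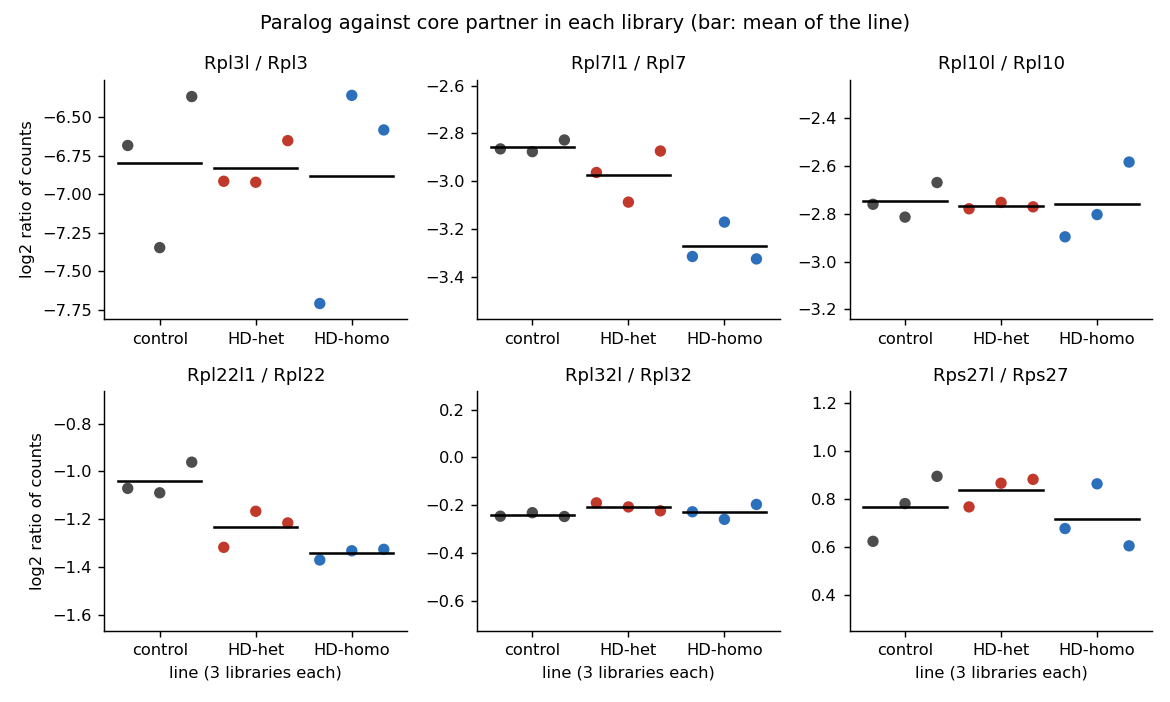
Log2 ratio of the count of a paralog to that of its core partner in each of the 9 libraries (points, 3 per line) with the mean of each line (bar), for 6 pairs; the axes differ between panels but span at least 1 log2 unit. The points of Rpl22l1 over Rpl22 are lower in both mutant lines than in control, and those of Rpl7l1 over Rpl7 are lowest in HD-homo.

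Change was also set beside features of the sequence that the symbol rule did not use. The 27 core members with a pyrimidine run at the start had a median log2 fold change of -0.68 for HD-het and 0.17 for HD-homo against control, and the 29 with a window but no run had -0.67 and 0.18. Across the 76 core members, which share libraries and are not independent, the correlation with coding length (log2) was 0.31 (Pearson) and 0.26 (Spearman) in HD-het and 0.14 and 0.08 in HD-homo, and with GC content of the coding sequence -0.18 and -0.12 in HD-het and -0.22 and -0.20 in HD-homo. With the number of genomic places (log2), the correlation was 0.08 and 0.05 in HD-het and 0.33 and 0.30 in HD-homo. These are descriptions, and the part of shared fragments in the rise of members such as Rpl21 (37 places) was not tested.

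Genes with related roles were counted from fixed lists. Of all rows, 29.1% were lower and 31.0% higher in HD-het against control, and 34.6% were higher in HD-homo against HD-het. All 4 ribosomal proteins outside the symbol rule that had a row, among them Fau, Rack1 and Rpl36al, were lower in HD-het against control, with -0.93 ± 0.11 for Fau, -0.85 ± 0.14 for Rpl36al and -0.63 ± 0.09 for Rack1, and HD-homo exceeded HD-het for all 4. Of 17 mRNAs listed as TOP mRNAs that encode no ribosomal protein, 15 were lower in HD-het and 0 higher, with a median of -0.79. A pyrimidine run was present in 5 of the 11 windows of this list (45.5%), beside 18.3% of the windows of all genes. The largest fall in this list was that of Eif3l, a subunit of initiation factor 3 (-1.18 ± 0.09), and the smallest value that of Eif3f (-0.10 ± 0.13, adjusted p = 0.54). In HD-homo against control, 3 of the 17 were higher and 3 lower (17.6% each, where 23.3% of all rows were higher and 22.3% lower), from -0.55 for Eif2s3x to 0.31 for Tpt1. Of the 8 dedicated chaperones of ribosomal proteins, 6 were lower in HD-het, led by Grwd1 (-0.94 ± 0.10), while Bccip had -0.09 ± 0.16 (adjusted p = 0.65). Against control, 1 chaperone was higher in HD-homo (12.5%, Heatr3, 0.41 ± 0.12) and 2 lower (25.0%), among them Pdcd2l (-0.61 ± 0.10), beside 23.3% and 22.3% of all rows.

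Of 11 regulators of TOP mRNAs, 5 were lower in HD-het and 0 higher, where 29.1% of all rows were lower, with a median of -0.20 and values from -1.02 for Eif4ebp2, which restrains cap-dependent initiation, to 0.27 for Larp1b (adjusted p = 0.058). Larp1, which binds the TOP motif, had 169 CPM in control and 136 CPM in HD-het (-0.31 ± 0.09, adjusted p = 0.012), and Mtor had 41.3 and 44.9 CPM (0.12 ± 0.09, adjusted p = 0.26). In HD-homo against control, 0 were higher and 3 lower (27.3%, where 22.3% of all rows were lower), from -0.41 for Rptor to 0.14 for Tsc1 (adjusted p = 0.25). The 78 proteins of the mitochondrial ribosome, which are encoded by other genes, had a median of -0.50 in HD-het. Of these, 58 were lower (74.4%) and 2 higher (2.56%), beside 29.1% and 31.0% of all rows. Mrps6 fell most (-1.37 ± 0.12) and Mrpl36 rose (1.65 ± 0.19, from a mean of 2.22 CPM in control). In HD-homo against control the median of these 78 was 0.03, with 16 higher (20.5%) and 11 lower (14.1%), beside 23.3% and 22.3% of all rows. Against HD-het it was 0.52, with 65 higher (83.3%) and 1 lower (Mrps14, -0.40 ± 0.08), beside 34.6% and 32.8% of all rows.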

How the data were processed

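The deposited table gives, for each gene symbol and library, a whole-number count of footprints, not normalized. The submitters' processing notes name cutadapt, Bowtie 1.0.1 and build mm10; the counting program, the annotation and the handling of strand and of fragments with several matches are not given in the sources used here. Fragments that match several genes may have been counted in several rows. Rps27 and Rps27rt, with the same coding sequence, held equal counts in all 9 libraries. No mRNA level was set beside the footprints, so values mix transcript level and translation.

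In R 4.3.3, edgeR 4.0.16 with limma 3.58.1 gave quasi-likelihood tests on all 9 libraries with TMM factors and the filterByExpr filter by line, and p-values were adjusted by Benjamini-Hochberg over the 12678 rows that passed, with 0.05 as the threshold. The test was checked on simulated counts. CPM values use TMM-scaled totals, except where a floor or share is given. For the scale of the ribosomal protein pool, library sizes were the summed counts of the 76 core members. Ratios of paralogs used a pseudocount of 0.5. Coding sequences came from RefSeq (GRCm38.p6), with 1 transcript per gene, for 83 of 84 members.

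The members and lists were chosen with earlier results of these data known. Named were the paralogs and partners, the 3 highest and 3 lowest members of each comparison with a mean of at least 10 CPM, 15 members with a role of their own, members against the majority, those not tested, and the extremes of other lists. Further members appear where a count of 5 or fewer is spelled out. Alternatives were RLE factors, total counts, no filter, DESeq2 1.42.0, a minimum of 10 counts per library, the 6 libraries compared alone, a replicate block, a threshold of 0.01, pseudogene rows added to their parent, TMM factors from core members and leaving out each library. TMM factors from rows that are no member, and offsets for GC content and coding length (loess, span 0.5), were chosen after seeing the data. Single values of 2 genes are not reported here.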

Additional observations from a re-analysis of the deposited data

How the results depend on the processing

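The count of lower members in HD-het against control stayed between 75 and 81, and that of higher members in HD-homo against HD-het between 75 and 81, with 0 in the other direction under every alternative run. The HD-homo against control comparison depended most on the setting. Its 29 higher members became 15 to 37, with 15 at an adjusted p under 0.01, 16 with the offsets for GC content and coding length and 16 to 34 over the fits without 1 library, and its 2 lower members became 1 at 0.01, 5 with the offsets and 1 to 3 without 1 library. With the offsets, the median log2 fold change of members was 0.042 in HD-homo against control and 0.65 in HD-homo against HD-het, and with total counts the latter was 0.97. The small-subunit minus large-subunit median was -0.052 in HD-het against control, -0.097 in HD-homo against control and 0.018 between the mutant lines with the offsets, and -0.13 in HD-homo against control with at least 10 counts in every library; without 1 library the 3 values ran from -0.094 to -0.036, from -0.19 to -0.11 and from -0.082 to 0.0068. Rpl37a changed sign in HD-het with the offsets (0.0044). With TMM factors from core members, the members higher within the pool were 7 in HD-het and 3 in HD-homo against control. Without 1 library, the members higher within the pool ran over 6 to 15, 1 to 5 and 9 to 15 in the 3 comparisons, and the members lower in HD-homo against control over 4 to 9. Without the 10 rows with the most counts, members held 8.20%, 4.88% and 9.33% of counts in control, HD-het and HD-homo. The cause of these changes was not tested. Of the 18 calls of named members in HD-homo against control, 8 held in every fit at the threshold of 0.05, against 35 of 39 in HD-het against control. The correlation of the deviations of libraries from different lines ran from -0.36 to 0.17 for the same replicate number. For different numbers it ran from -0.28 to 0.38. With 3 libraries per line, these values cannot show whether the numbers pair the libraries. A replicate block gave 80 lower members in HD-het, 26 higher and 2 lower in HD-homo against control and 80 higher in HD-homo against HD-het. Counts of fragments with several genomic matches limit what can be said of levels between members.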
